A study of Mus musculus with 26 samples.

Results

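The 10 genes described here are the AP-1 subunits Fos, Fosb, Jun, Junb and Jund, the nuclear receptor Nr4a1, the phosphatase Dusp1, the small nuclear protein gene Ier2, and the G protein regulators Rgs1 and Rgs2. They were picked by symbol out of 23267 gene symbols in the deposited tables, and each had 1 row in each of the 26 libraries. No member was listed at 0 anywhere, and all 10 passed the filter on low values in each test. The libraries came from thymus cells of wild-type C57BL/6 mice aged 6 to 8 weeks, sorted by flow cytometry and sequenced as bulk RNA.

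The libraries form 5 groups. DN1eP-NKT cells (4 libraries) are NKT cells grown from DN1eP precursors in a 10-day culture on OP9/Dll-1 stroma, with 5 ng/ml IL-2 and 5 ng/ml IL-7, and they carry the Vα14Jα18 receptor. OP9/Dll-1 is a mouse stromal cell line that presents a Notch ligand. Thymic NKT cells were taken straight from the organ as TCRβ-positive cells that bind CD1d loaded with α-galactosylceramide. NKT-1 (5 libraries) lacks CD44 and NK1.1, NKT-2 (7) has CD44 without NK1.1, and NKT-3 (6) has both. DN1eP precursors (4 libraries), also sorted without culture, are negative for the lineage markers, CD25 and the Vα14Jα18 receptor, and positive for CD44, CD5, CD27 and CXCR3. The labels name no mutant allele or transgene in any group, and they do not say whether replicate libraries came from separate animals, so the p-values below measure only the spread between these samples.

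Immediate early genes are transcribed within minutes of receptor signalling, without new protein synthesis. In T cells, antigen receptor signals reach them through MAP kinases and calcium, whose factors bind the promoters of Fos and its relatives. Fos and Jun proteins pair to form the AP-1 factor, Nr4a1 marks recent antigen receptor signalling, and Dusp1 removes phosphate from MAP kinases. Tissue handling and cell sorting are known to raise the same genes. Rgs1 and Rgs2 shorten signalling by chemokine and other G protein coupled receptors.

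The 26 libraries fall in 2 sets of 13 by the median FPKM of expressed genes, 12.97 to 13.85 in the higher-median set and 7.58 to 9.81 in the lower-median set. The higher-median set holds DN1eP-NKT 1 to 4, NKT-1 1 and 2, NKT-2 1 to 4 and NKT-3 1 to 3. The lower-median set holds NKT-1 3 to 5, NKT-2 5 to 7, NKT-3 4 to 6 and DN1eP 1 to 4. Depth, read from the FPKM that 1 fragment is worth, was about 1.05 to 28.2 M fragments per library, where M is the mega prefix. In the higher-median set 3 libraries were deep (DN1eP-NKT 1, NKT-1 1 and NKT-2 1, 13.03 to 15.67 M) and the other 10 held 1.14 to 2.82 M. In the lower-median set DN1eP 2 to 4 held 1.05 to 1.86 M and the other 10 held 19.5 to 28.2 M. The 5 T and NKT cell markers found (Cd3d, Cd3e, Cd3g, Cd5 and Zbtb16) were above 0 in each of the 26 libraries, and all 5 were at 1 FPKM or more in each but NKT-3 5, which had 4. Stroma markers summed to 73.3 to 383 FPKM in DN1eP-NKT libraries and to at most 1.01 FPKM in the thymic libraries of that set. Genes listed as mast cell markers (Cpa3, Kit, Mcpt4, Mcpt8, Prss34, Cma1 and Fcer1a) summed to 73.4 to 606 FPKM in DN1eP libraries. Prss34 alone had 36.7 to 375 FPKM there and Mcpt4 was at 0, so the sum does not name a cell type. Among thymic stages NKT-1 3 had 121 FPKM of this list, where NKT-1 4 and 5 had 0.142 and 0.0190 FPKM. Of the 121 FPKM, 68.1 FPKM came from Prss34. NKT-2 6 and NKT-3 5 had B cell marker sums of 138 and 42.5 FPKM and erythroid marker sums of 199 and 827 FPKM. The part of these markers in the results below was not tested, and in bulk samples fewer cells of a type and less RNA per cell cannot be told apart.

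The members are short genes. In the deposited tables (mm9, 1-based) they spanned 1522 bp (Ier2) to 7949 bp (Nr4a1), against a median of 14462 bp over all rows. Rgs1 and Rgs2 lie on the same chromosome (chr1:146091799-146096234 and chr1:145846468-145851279), and so do Junb, Jund and Ier2 (chromosome 8). Promoter windows of 300 bases, from 250 before the transcript start to 50 after it, were found for 8 of the 10 members in the RefSeq promoter table (GRCm38.p6), all but Ier2 and Rgs1. Cyclic AMP response elements, bound by CREB and ATF factors, were searched for because they are a known part of several of these promoters. The full palindrome TGACGTCA was in 1 of 8 windows, that of Dusp1 at position -143, and in 1.79% of 32851 mouse promoter windows. Its core, TGACG on either strand, was in 6 of 8 windows and in 20.8% of all windows, and a full palindrome also holds a core on each strand. The 2 windows without a core were those of Jun and Jund. The AP-1 motif TGANTCA, searched on both strands, was in 0 of 8 windows and in 7.81% of all, and the CArG box, the motif of the factor SRF, was in 0 of 8 and in 1.63%. A letter match is a description of these windows and says nothing of binding. Sites outside the windows, or with other letters than these motifs, were not searched for. The 4 windows that hold the core more than once are printed 5′ to 3′ on the gene's own strand, with the core, or its reverse complement CGTCA, in capitals. They are at chr12:85473640-85473939 (Fos, plus strand), chr15:101266596-101266895 (Nr4a1, plus), chr17:26508423-26508722 (Dusp1, minus) and chr1:144004100-144004399 (Rgs2, minus).
Fos: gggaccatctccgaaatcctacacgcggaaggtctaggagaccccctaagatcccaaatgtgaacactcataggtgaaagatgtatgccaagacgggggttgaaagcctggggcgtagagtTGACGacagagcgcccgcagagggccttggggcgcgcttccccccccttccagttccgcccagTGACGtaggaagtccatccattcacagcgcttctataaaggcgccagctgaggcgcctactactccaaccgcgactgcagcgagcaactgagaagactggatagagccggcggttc
Nr4a1: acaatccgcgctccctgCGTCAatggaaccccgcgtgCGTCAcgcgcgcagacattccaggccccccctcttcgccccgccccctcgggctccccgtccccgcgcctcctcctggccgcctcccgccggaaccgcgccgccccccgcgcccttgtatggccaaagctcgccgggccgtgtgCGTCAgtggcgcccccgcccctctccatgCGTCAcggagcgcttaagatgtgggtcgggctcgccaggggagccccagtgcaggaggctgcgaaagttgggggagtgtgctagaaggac
Dusp1: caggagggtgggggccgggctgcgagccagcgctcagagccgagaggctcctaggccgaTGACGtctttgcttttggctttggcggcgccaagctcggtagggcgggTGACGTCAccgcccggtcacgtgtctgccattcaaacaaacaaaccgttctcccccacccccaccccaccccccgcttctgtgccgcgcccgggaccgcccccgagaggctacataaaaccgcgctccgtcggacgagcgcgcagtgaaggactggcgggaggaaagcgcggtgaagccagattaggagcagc
Rgs2: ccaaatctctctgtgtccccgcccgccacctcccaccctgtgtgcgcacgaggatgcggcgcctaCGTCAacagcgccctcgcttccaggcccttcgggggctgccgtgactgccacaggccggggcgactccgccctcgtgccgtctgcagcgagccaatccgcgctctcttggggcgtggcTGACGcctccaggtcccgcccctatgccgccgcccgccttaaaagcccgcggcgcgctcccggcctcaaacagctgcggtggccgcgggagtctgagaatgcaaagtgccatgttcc

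Stage 3 thymic NKT cells had the highest levels of most members in the higher-median set. Dusp1, which dephosphorylates MAP kinases, had 1053, 1402 and 2012 FPKM in NKT-3, against 547, 140.3, 45.4 and 248 FPKM in NKT-2 and 26.7 and 121 FPKM in NKT-1. Fos, the partner of Jun proteins in AP-1, had 189, 545 and 515 FPKM in NKT-3, against 236, 27.2, 15.1 and 63.3 FPKM in NKT-2 and 10.3 and 26.9 FPKM in NKT-1. The 3 NKT-3 libraries lay above each NKT-1 and NKT-2 library for Dusp1, while for Fos the NKT-2 1 library lay above NKT-3 1. Averages were 1489 ± 485 FPKM for Dusp1 and 416 ± 198 FPKM for Fos in NKT-3 (SD, n = 3), against 245 ± 218 and 85.3 ± 102 FPKM in NKT-2 (n = 4). Tests were made with limma on log2(FPKM + 1), with Benjamini-Hochberg adjustment across the 11401 genes tested in this set, and a gene was called at an adjusted p under 0.05. Between NKT-3 and NKT-1, Dusp1 differed by 4.63 ± 0.99 on the log2 scale (SE, adjusted p = 0.00625) and Fos by 4.40 ± 1.08 (adjusted p = 0.013). NKT-3 minus NKT-2 was 3.06 ± 0.83 for Dusp1 (limma adjusted p = 0.0205) and 2.88 ± 0.90 for Fos (limma adjusted p = 0.0396). With 1 library left out at a time, this Fos call was kept in only 6 of 13 fits and the Dusp1 call in 11 of 13. The Fos call was also lost in 1 fit of all 26 libraries, and both were lost with a replicate block.

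Of the 10 members, 8 were higher in NKT-3 than in NKT-1 of the higher-median set and none was lower, where 28.7% of all tested genes were called in either direction and 10.6% as higher. Of the same 10, 7 were higher in NKT-3 than in NKT-2 and none was lower, where 28.6% of all tested genes were called, 11.8% as higher. The median member differed by 2.88 between NKT-3 and NKT-1 and by 2.15 between NKT-3 and NKT-2 on the log2 scale, beside medians of -0.09 and -0.03 over all tested genes. Both comparisons share the NKT-3 libraries. The 8 calls against NKT-1 were Fos, Fosb, Jun, Junb, Jund, Dusp1, Rgs1 and Rgs2, and Fosb was the one not called against NKT-2. With NKT-1 1 left out, which leaves 1 NKT-1 library, 2 members were called between NKT-3 and NKT-1, Rgs1 and Rgs2. Without NKT-3 3 there were 5 calls in that comparison, and without DN1eP-NKT 3 or 4, NKT-2 2, 3 or 4, or NKT-3 2 or 3 there were 3 or 4 calls between NKT-3 and NKT-2.

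**Figure D1:**
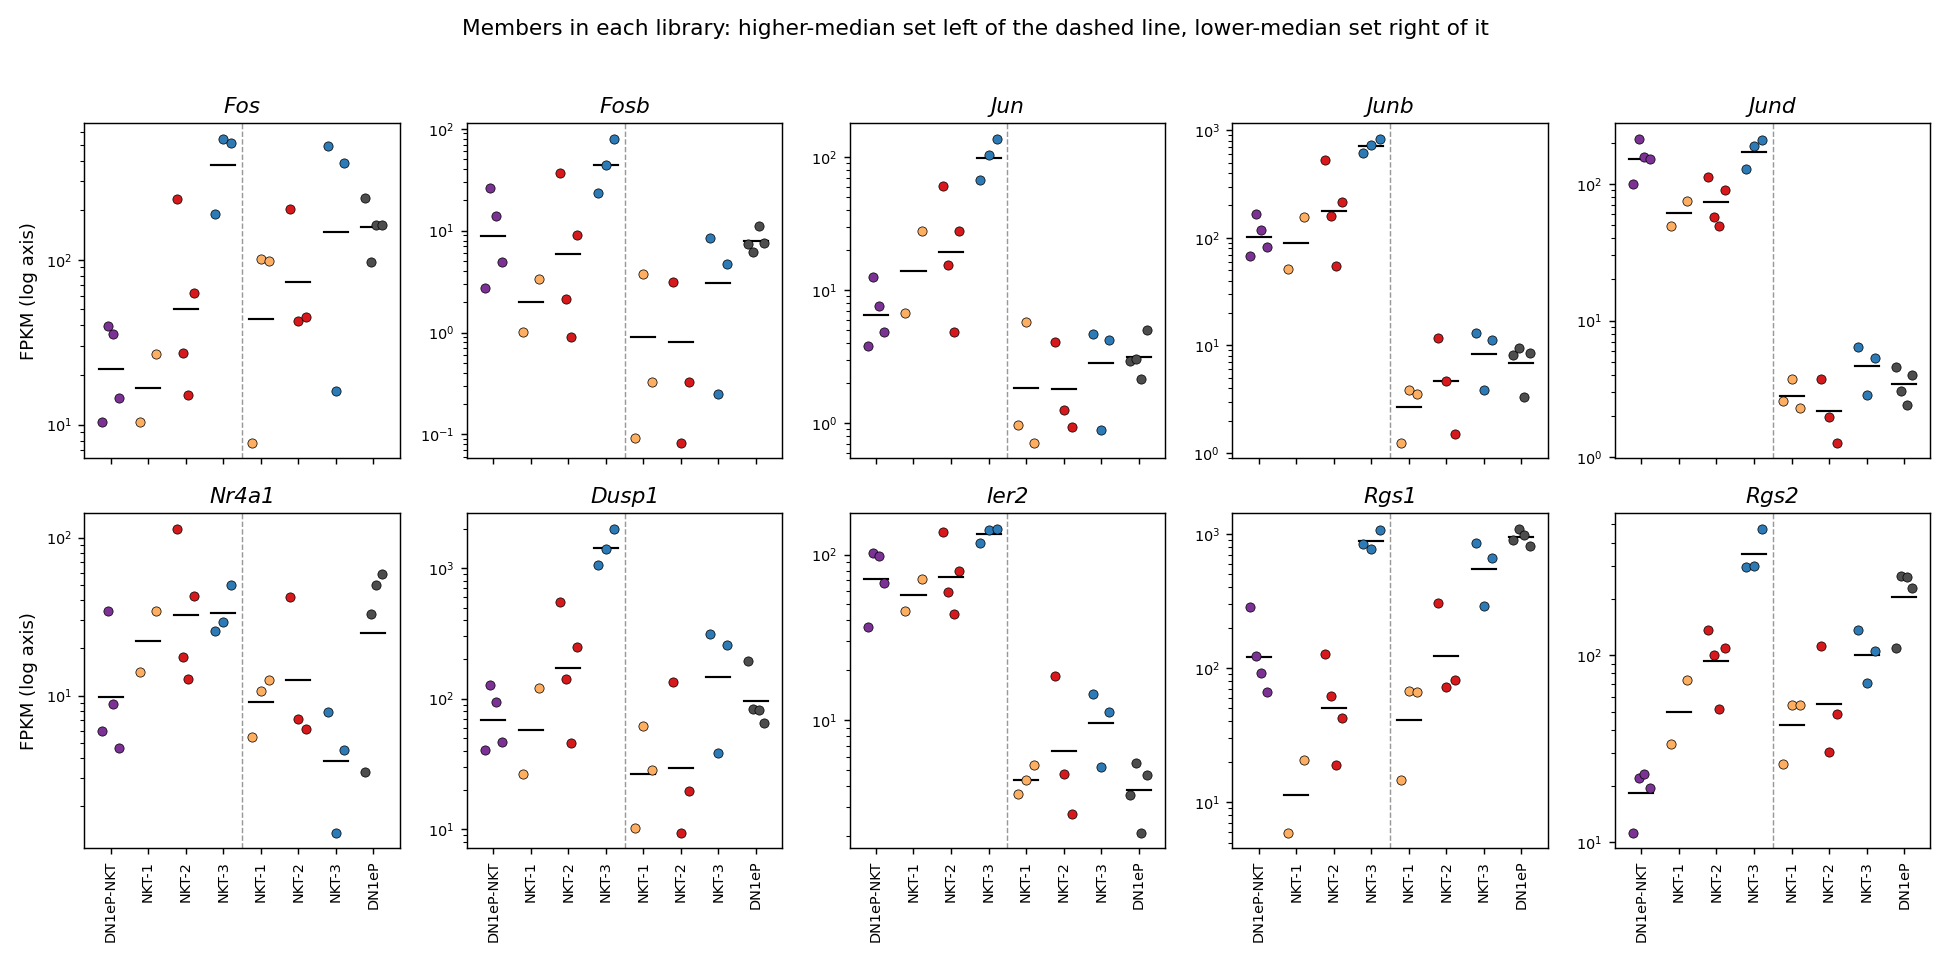
FPKM of the 10 members in each of the 26 libraries, 1 panel per gene on a log axis; each point is a library, each bar is the group's mean taken on the log2(FPKM + 1) scale, and the dashed line parts the higher-median set (left) from the lower-median set (right). NKT-3 libraries of the higher-median set had 1053 to 2012 FPKM of Dusp1, above all others, while Junb, Jund and Ier2 were lower in each thymic library right of the line than in each one left of it.

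Rgs1, a brake on chemokine receptor signalling, had the largest difference between stages among the members. It stood at 833, 769.6 and 1070.2 FPKM in NKT-3 of the higher-median set, against 128, 61.4, 19.0 and 42.1 FPKM in NKT-2 and 5.90 and 20.8 FPKM in NKT-1. Stage 3 values did not overlap with those of the earlier stages. The log2 difference was 6.17 ± 0.80 between NKT-3 and NKT-1 (SE, limma adjusted p = 0.00022) and 4.11 ± 0.67 between NKT-3 and NKT-2 (limma adjusted p = 0.0011). Rgs2, which acts on the same class of receptors, had 296, 300.1 and 474 FPKM in NKT-3, against 136, 100.5, 51.6 and 109 FPKM in NKT-2 and 33.4 and 74.1 FPKM in NKT-1. These 3 groups were apart as well, save that NKT-2 3 lay inside the range of NKT-1. Rgs2 differed by 2.78 ± 0.41 between NKT-3 and NKT-1 (SE, limma adjusted p = 0.000163) and by 1.88 ± 0.35 between NKT-3 and NKT-2 (limma adjusted p = 0.000976). Both genes kept these calls with each of the 13 libraries of the set left out in turn.

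The Jun family genes were higher in NKT-3 as well. Junb, an AP-1 subunit, had 614, 722 and 836 FPKM in NKT-3, against 529.5, 160.4, 54.4 and 216 FPKM in NKT-2 and 51.3 and 157 FPKM in NKT-1. Jun had 67.4, 104 and 138 FPKM in NKT-3, against 60.9, 15.6, 4.85 and 28.0 FPKM in NKT-2 and 6.77 and 28.1 FPKM in NKT-1. For both genes the NKT-3 libraries lay above the rest, and NKT-2 1 came close to them. The log2 difference between NKT-3 and NKT-2 was 2.01 ± 0.67 for Junb (SE, limma adjusted p = 0.0475) and 2.29 ± 0.76 for Jun (limma adjusted p = 0.0477). Each of these 2 calls was lost in 10 of 13 fits that left out 1 library. Jund, the family's more constantly expressed member, had 128, 188 and 209 FPKM in NKT-3, against 112, 57.4, 49.5 and 89.8 FPKM in NKT-2 and 49.5 and 74.7 FPKM in NKT-1. NKT-3 lay above both earlier stages, which overlapped with each other, with a difference of 1.22 ± 0.30 between NKT-3 and NKT-2 (SE, limma adjusted p = 0.00656) that kept its call in each of the 13 fits. Between NKT-3 and NKT-1 the limma differences were 2.99 ± 0.80 for Junb (adjusted p = 0.0181), 2.73 ± 0.91 for Jun (adjusted p = 0.048) and 1.48 ± 0.36 for Jund (adjusted p = 0.00568). The Jun call between NKT-3 and NKT-1 was also lost in 10 of 13 fits with a library left out, and both Jun calls were lost with a pseudocount of 0.1.

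Fosb, a Fos relative that also pairs with Jun proteins, had the lowest mean of the 5 AP-1 members in each thymic stage of the higher-median set. It had 23.6, 44.3 and 80.0 FPKM in NKT-3, against 36.9, 2.13, 0.911 and 8.99 FPKM in NKT-2 and 1.02 and 3.38 FPKM in NKT-1. NKT-2 1 lay within the range of NKT-3, and the remaining 5 libraries lay below it. The difference between NKT-3 and NKT-1 was 3.91 ± 1.26 (SE, limma adjusted p = 0.0437), a call lost in 8 of 13 fits with a library left out, and that between NKT-3 and NKT-2 was 2.70 ± 1.06 (limma adjusted p = 0.0874). From its length and the depth, a value of Fosb rested on about 7.2 to 1817 fragments, fewer than 10 in 4 libraries. Log2 differences of FPKM + 1 understate the change of a gene at such low values.

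Without scaling and with all libraries of a set in the fit, Nr4a1 and Ier2 were not called between any 2 thymic stages. Nr4a1, the orphan receptor that reports antigen receptor signalling, had 25.7, 29.1 and 49.8 FPKM in NKT-3, against 114, 17.5, 12.7 and 42.4 FPKM in NKT-2 and 14.0 and 34.4 FPKM in NKT-1. The 3 groups overlapped, and the highest value was in NKT-2. NKT-3 minus NKT-2 was 0.04 ± 0.82 (SE, limma adjusted p = 0.99) and NKT-3 minus NKT-1 was 0.58 ± 0.98 (limma adjusted p = 0.715). Errors of this size leave room for differences as large as those of Jund. Ier2, an early response gene that encodes a nuclear protein, had 118, 140.3 and 143 FPKM in NKT-3, against 137, 59.5, 43.9 and 79.2 FPKM in NKT-2 and 45.3 and 71.5 FPKM in NKT-1. NKT-2 1 again overlapped with NKT-3, and the difference between NKT-3 and NKT-1 was 1.21 ± 0.45 (SE, limma adjusted p = 0.0607). This difference was called without DN1eP-NKT 1, NKT-2 1 or NKT-2 3, and with upper-quartile scaling. That between NKT-3 and NKT-2 was called without DN1eP-NKT 1 or NKT-2 1.

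Between NKT-2 and NKT-1 none of the 10 members was called by limma in either set. Over all tested genes 0.211% were called in the higher-median set, and 2 members had an unadjusted p under 0.05 there, Rgs1 at 2.07 ± 0.76 and Rgs2 at 0.90 ± 0.39 (log2, SE). In the lower-median set 0.141% of genes were called and 1 member had an unadjusted p under 0.05, Rgs1 at 1.57 ± 0.67. NKT-2 libraries of the higher-median set ranged widely, with Dusp1 between 45.4 and 547 FPKM and Fos between 15.1 and 236 FPKM.

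In the lower-median set the same stages gave 1 call. Rgs1 had 859, 289.6 and 658 FPKM in NKT-3, against 306, 72.6 and 81.8 FPKM in NKT-2 and 14.6, 67.6 and 66.3 FPKM in NKT-1. NKT-3 lay above NKT-1 throughout, and NKT-3 5 lay just under NKT-2 5. NKT-1 3, the thymic library with the highest sum of the mast cell list, was the lowest of its 3 for Rgs1, as for 8 of 10 members (32.4% of all genes). Rgs1 differed by 3.72 ± 0.67 between NKT-3 and NKT-1 (SE, limma adjusted p = 0.00283), the only member called there, where 20.2% of all 10647 tested genes were called, 4.10% as higher. With upper-quartile scaling 46.3% of the called genes in this comparison were higher, beside 20.3% without scaling. Of the other members, 2 had an unadjusted p under 0.05, Rgs2 at 1.23 ± 0.47 and Junb at 1.37 ± 0.56 (log2, SE). Between NKT-3 and NKT-2 limma called 0 of 10 members and 7.65% of all genes, and Rgs1 (2.15 ± 0.67) and Jund (0.84 ± 0.35) had an unadjusted p under 0.05. Of the genes called there 48.6% were higher with upper-quartile scaling, beside 33.4% without.

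For each of the 10 members, Rgs1 included, at least 1 NKT-3 library of this set lay within the joint range of NKT-2 and NKT-1. Junb had 12.9, 3.86 and 11.4 FPKM in NKT-3, against 11.8, 4.72 and 1.496 FPKM in NKT-2 and 1.25, 3.82 and 3.52 FPKM in NKT-1. Jun had 4.73, 0.892 and 4.19 FPKM in NKT-3, against 4.12, 1.25 and 0.934 FPKM in NKT-2 and 0.969, 5.82 and 0.712 FPKM in NKT-1. Ier2 had 14.3, 5.24 and 11.3 FPKM in NKT-3, against 18.6, 4.73 and 2.71 FPKM in NKT-2 and 3.56, 4.35 and 5.34 FPKM in NKT-1. In each of these 3 genes NKT-3 4 and 6 were near each other and NKT-3 5 was within the range of the earlier stages. Nr4a1 had 7.87, 1.35 and 4.55 FPKM in NKT-3, against 41.9, 7.15 and 6.10 FPKM in NKT-2 and 5.505, 10.7 and 12.6 FPKM in NKT-1. Its differences were negative, -1.47 ± 1.05 for NKT-3 minus NKT-2 and -1.06 ± 1.05 for NKT-3 minus NKT-1 (log2, SE), and neither was called (limma adjusted p = 0.522 and 0.557).

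A stage 3 library of the lower-median set stood apart from its group. NKT-3 5 had 15.9 FPKM of Fos, where NKT-3 4 and 6 had 489 and 388 FPKM, and it had 38.6 FPKM of Dusp1, where they had 316 and 258 FPKM. It was the lowest of the 3 for 10 of 10 members (28.9% of all genes), and it is the library with 827 FPKM of erythroid and 42.5 FPKM of B cell markers. NKT-2 6, which carries such markers as well, had 42.6 FPKM of Fos and 9.35 FPKM of Dusp1, against 204 and 135 FPKM in NKT-2 5 and 44.8 and 19.4 FPKM in NKT-2 7. With both libraries left out together, 4 members were called between NKT-3 and NKT-1, Fosb, Dusp1, Rgs1 and Rgs2. Whether the 2 sets differ in a stage difference was tested in 1 fit of all 26 libraries and 12119 genes. No member was called by limma for any of the 3 stage differences, where 0.00%, 0.338% and 0.330% of all genes were called. For NKT-3 minus NKT-1 3 members had an unadjusted p under 0.05, with differences between sets of 2.45 ± 1.08 for Rgs1, 2.30 ± 1.08 for Jun and 1.55 ± 0.68 for Rgs2 (log2, SE), each larger in the higher-median set.

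**Figure D2:**
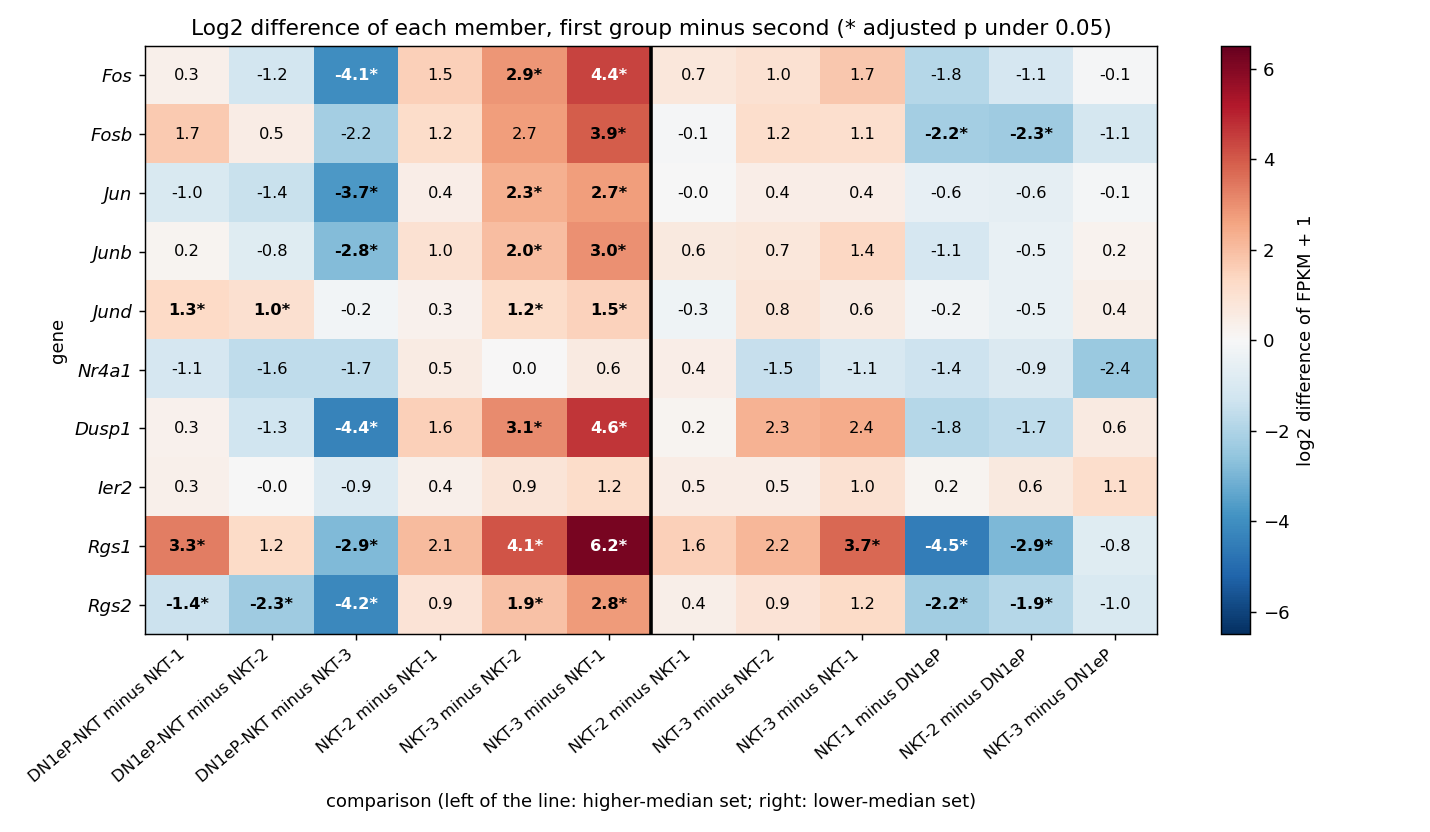
Log2 difference of FPKM + 1 for each member (rows) in 12 comparisons within a set (columns), first group minus second, with the value printed in each cell and an asterisk at a limma adjusted p under 0.05; the heavy line parts the 2 sets. The largest value is 6.17 for Rgs1 in NKT-3 minus NKT-1 of the higher-median set, and Nr4a1 has no asterisk in any column.

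Cultured DN1eP-NKT cells were set against the thymic stages sequenced in the same set. Against NKT-3, 6 of 10 members were lower in DN1eP-NKT and none was higher, where 31.6% of all tested genes were called, 11.8% as lower. The 5 T and NKT cell markers were also all called lower, with a median log2 difference of -1.34 and sums of 871 to 1245 FPKM in DN1eP-NKT and 2063 to 2536 FPKM in NKT-3, and their part in the members' differences was not tested. Rgs2 had 11.3, 22.2, 23.1 and 19.5 FPKM in DN1eP-NKT, against the 296, 300.1 and 474 FPKM of NKT-3. The groups were far apart, with a log2 difference of -4.17 ± 0.35 (SE, limma adjusted p = 4.47e-07). Dusp1 had 40.7, 127, 93.6 and 46.8 FPKM in DN1eP-NKT, below each NKT-3 library by a wide margin (-4.36 ± 0.83, limma adjusted p = 0.00288). Fos had 10.4, 39.6, 35.5 and 14.5 FPKM in DN1eP-NKT and likewise did not reach NKT-3 (-4.06 ± 0.90, limma adjusted p = 0.00737). Jun (-3.72 ± 0.76), Rgs1 (-2.86 ± 0.67) and Junb (-2.80 ± 0.67) were the other 3, with limma adjusted p of 0.00422, 0.00826 and 0.0096. All 6 calls were kept with each of the 13 libraries left out in turn. Nr4a1 had 5.95, 34.1, 8.90 and 4.68 FPKM in DN1eP-NKT, and its difference from NKT-3 of -1.67 ± 0.82 was not called (limma adjusted p = 0.155). DN1eP-NKT 2 lay inside the NKT-3 range for Nr4a1 and the other 3 libraries below it. Without DN1eP-NKT 2, Nr4a1 was called lower than in NKT-3.

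Against the earlier stages the members split. Rgs1 had 284, 122, 91.3 and 66.2 FPKM in DN1eP-NKT, above both NKT-1 libraries and overlapping with NKT-2. It was higher than in NKT-1 by 3.31 ± 0.76 (log2, SE, limma adjusted p = 0.0104), and not called against NKT-2 (1.24 ± 0.62, limma adjusted p = 0.179). Rgs2 was lower in each DN1eP-NKT library than in each thymic library of the set, by -1.39 ± 0.39 against NKT-1 (limma adjusted p = 0.0201) and by -2.29 ± 0.32 against NKT-2 (limma adjusted p = 9.29e-05). Jund had 100.03, 214, 159 and 153 FPKM in DN1eP-NKT, above both NKT-1 libraries, and only DN1eP-NKT 1 fell within the range of NKT-2. Its differences were 1.298 ± 0.34 against NKT-1 (limma adjusted p = 0.012) and 1.03 ± 0.28 against NKT-2 (limma adjusted p = 0.0113). These are 3 calls of 10 members against NKT-1, where 21.2% of all genes were called (11.5% as higher and 9.69% as lower), and 2 of 10 against NKT-2, where 26.1% were called (15.2% as higher and 10.9% as lower). Both shares lie near the background. Without NKT-1 1, which leaves 1 library in that group, Rgs2 was the 1 call left against NKT-1, and without NKT-1 2 the call of Rgs2 was lost. Fos, Fosb, Jun, Junb, Dusp1, Ier2 and Nr4a1 were not called against either stage, with differences between -1.63 (Nr4a1 against NKT-2) and 1.71 (Fosb against NKT-1). Without DN1eP-NKT 2, Nr4a1 was called lower than in NKT-2, and without NKT-2 3, Jun was.

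The comparisons against NKT-1, NKT-2 and NKT-3 share the DN1eP-NKT libraries. DN1eP-NKT 1, the deep library of the group at 15.7 M fragments, had a Pearson r across genes of 0.905 to 0.925 with the other 3, which had 0.940 to 0.957 among themselves. It had the lowest value of the 4 for 8 members and the highest for Rgs1. Over all tested genes it was lowest for 44.5% and highest for 25.3%. Stroma markers were highest in DN1eP-NKT 3 and 4 (383 and 379.7 FPKM) and lowest in DN1eP-NKT 1 (73.3 FPKM), and their part in the differences from thymic cells was not tested.

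DN1eP precursors had high Rgs1 and Rgs2 beside the early thymic stages. DN1eP 2 to 4 held 1.05 to 1.86 M fragments and the thymic libraries of this set 19.5 to 28.2 M. The part of depth in the comparisons with DN1eP was not tested. Rgs1 had 14.6, 67.6 and 66.3 FPKM in NKT-1 and 306, 72.6 and 81.8 FPKM in NKT-2, against 904, 1093, 973 and 818 FPKM in DN1eP. Neither stage reached the DN1eP range, and the differences were -4.50 ± 0.62 for NKT-1 (log2, SE, limma adjusted p = 0.000442) and -2.94 ± 0.62 for NKT-2 (limma adjusted p = 0.0074). Rgs2 had 26.1, 54.3 and 53.9 FPKM in NKT-1 and 111, 30.5 and 48.3 FPKM in NKT-2, against 109, 265, 261 and 228 FPKM in DN1eP. DN1eP 1 lay just below NKT-2 5 and the rest of DN1eP above both stages. Rgs2 differed by -2.23 ± 0.44 for NKT-1 (limma adjusted p = 0.00253) and by -1.87 ± 0.44 for NKT-2 (limma adjusted p = 0.00911). Fosb had 0.0928, 3.71 and 0.330 FPKM in NKT-1 and 3.13, 0.0827 and 0.327 FPKM in NKT-2, against 7.38, 6.11, 11.01 and 7.62 FPKM in DN1eP. Both stages lay below DN1eP, by -2.22 ± 0.69 (limma adjusted p = 0.0295) and -2.29 ± 0.69 (limma adjusted p = 0.0301), and each of these 2 calls was lost in 5 of 13 fits with a library left out, with a pseudocount of 0.1, with no filter on low values and in 1 fit of all 26 libraries. These 3 genes are the 3 calls of 10 members in each comparison, where 29.9% of all genes were called for NKT-1 (13.6% as lower) and 24.5% for NKT-2 (15.6% as lower). A share of 3 in 10 is near both backgrounds. The other 7 members were not called, with differences between -1.83 (Fos and Dusp1 in NKT-1) and 0.65 (Ier2 in NKT-2). Some of their DN1eP values rested on few fragments. In DN1eP 3 these were about 3.3 for Ier2, 4.2 for Jund, 6.4 for Junb and 7.2 for Jun. In DN1eP 2 they were about 8.9 for Ier2 and 5.4 for Jund.

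NKT-3 and DN1eP were not told apart by any member, and the limits of depth given above for DN1eP apply here too. Limma called 0 of 10, with 15.5% of all genes called, and 3 members had an unadjusted p under 0.05, Nr4a1 (-2.41 ± 0.98), Rgs2 (-1.01 ± 0.44) and Ier2 (1.14 ± 0.47). Upper-quartile scaling moved the share of called genes that were higher to 42.6% here, beside 16.6% without it. Nr4a1 had 7.87, 1.35 and 4.55 FPKM in NKT-3, against 3.28, 32.8, 50.3 and 59.2 FPKM in DN1eP. DN1eP 1 was within the NKT-3 range and DN1eP 2 to 4 were above it. Without DN1eP 1, Nr4a1 and Rgs2 were called lower in NKT-3. DN1eP 1 was the deep library of its group (about 19.95 M fragments). Its Pearson r across genes with the other 3 was 0.883 to 0.907, where they had 0.933 to 0.941 among themselves. It carried 275 FPKM of myeloid markers, beside 24.9 to 34.8 FPKM in DN1eP 2 to 4. Of the mast cell list it had 73.4 FPKM, beside 511 to 606 FPKM in DN1eP 2 to 4. The part of these markers in the Nr4a1 and Rgs2 differences was not tested. Fos had 489, 15.9 and 388 FPKM in NKT-3, against 237, 96.8, 163 and 164 FPKM in DN1eP, and its groups overlapped (-0.10 ± 1.31, limma adjusted p = 0.968).

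The comparison of DN1eP-NKT with DN1eP crosses the 2 sets, and group and set cannot be told apart for these 8 libraries. With library set as a term, which is estimated from the 18 thymic libraries and assumed to hold for both groups, 5 of 10 members were lower in DN1eP-NKT, where 33.2% of all genes were called, 17.4% as lower. Rgs2 had the 11.3 to 23.1 FPKM given above in DN1eP-NKT, against 109 to 265 FPKM in DN1eP, with a fitted difference of -4.36 ± 0.52 (log2, SE, limma adjusted p = 9.57e-07). Its libraries did not overlap even before the term was applied. Nr4a1 was fitted at -3.05 ± 1.02 (limma adjusted p = 0.0268), Dusp1 at -2.85 ± 1.07 (limma adjusted p = 0.0455), Jun at -2.50 ± 0.82 (limma adjusted p = 0.0221) and Rgs1 at -2.22 ± 0.83 (limma adjusted p = 0.044). Jun stood at 3.81 to 12.5 FPKM in DN1eP-NKT and at 2.15 to 4.99 FPKM in DN1eP, so its direction comes from the term. Dusp1 stood at 40.7 to 127 FPKM in DN1eP-NKT and at 65.3 to 193 FPKM in DN1eP, and Nr4a1 at 4.68 to 34.1 and 3.28 to 59.2 FPKM. Both overlapped before the term was applied. Of these calls, those of Rgs2 and Jun were kept with each of the 26 libraries left out in turn. That of Nr4a1 was kept in 21 of these 26 fits, and those of Dusp1 and Rgs1 in 7 each. The count of called members went as low as 2.

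Members moved together from library to library inside a group. NKT-2 1 had the highest value of the 4 NKT-2 libraries of its set for 10 of 10 members, and NKT-2 3 the lowest for 10 of 10. Over all tested genes these 2 libraries were highest and lowest for 17.4% and 24.2%. In the lower-median set NKT-2 5 was the highest of 3 for 10 of 10 members (47.1% of all genes), and NKT-3 4 was the highest for 10 of 10 (49.995%). NKT-3 5 was the lowest of its 3 for 10 of 10 (28.9% of all genes). NKT-1 2 exceeded NKT-1 1 for 10 of 10 members and for 60.6% of all genes. The members' median deviation from the group mean was 1.58 in NKT-2 1 and -1.52 in NKT-2 3 on the log2 scale, beside -0.07 and -0.02 over all tested genes.

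The part of depth in these deviations was not tested. NKT-2 1, where members were high, held 13.03 M fragments and NKT-2 3, where they were low, held 2.60 M. NKT-1 1 and DN1eP-NKT 1, where members were mostly low, held 15.5 and 15.7 M. In the lower-median set NKT-2 5 and NKT-3 4, where members were highest, held 19.5 and 20.2 M. The other NKT-2 and NKT-3 libraries of that set held 24.8 to 28.2 M. Fosb in NKT-2 2 at 2.13 FPKM rested on about 9.2 fragments and Dusp1 there at 140.3 FPKM on about 318. DN1eP was the group without a shared pattern. Its 4 libraries had the highest value for 3, 4, 1 and 2 members (27.5%, 24.4%, 30.2% and 17.4% of all genes). Nr4a1 in DN1eP 1 was far below the other 3 libraries while Dusp1 was above them. Over the 13 libraries of each set, the Pearson r between 2 members' deviations from their group means was above 0 for 45 of 45 pairs in both sets, with a median of 0.89 in the higher-median set and 0.70 in the lower-median set. These r share the same 13 libraries and are given as a description. The lowest were 0.28 between Ier2 and Rgs1 in the higher-median set and 0.29 between Jund and Nr4a1 in the lower-median set.

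**Figure D3:**
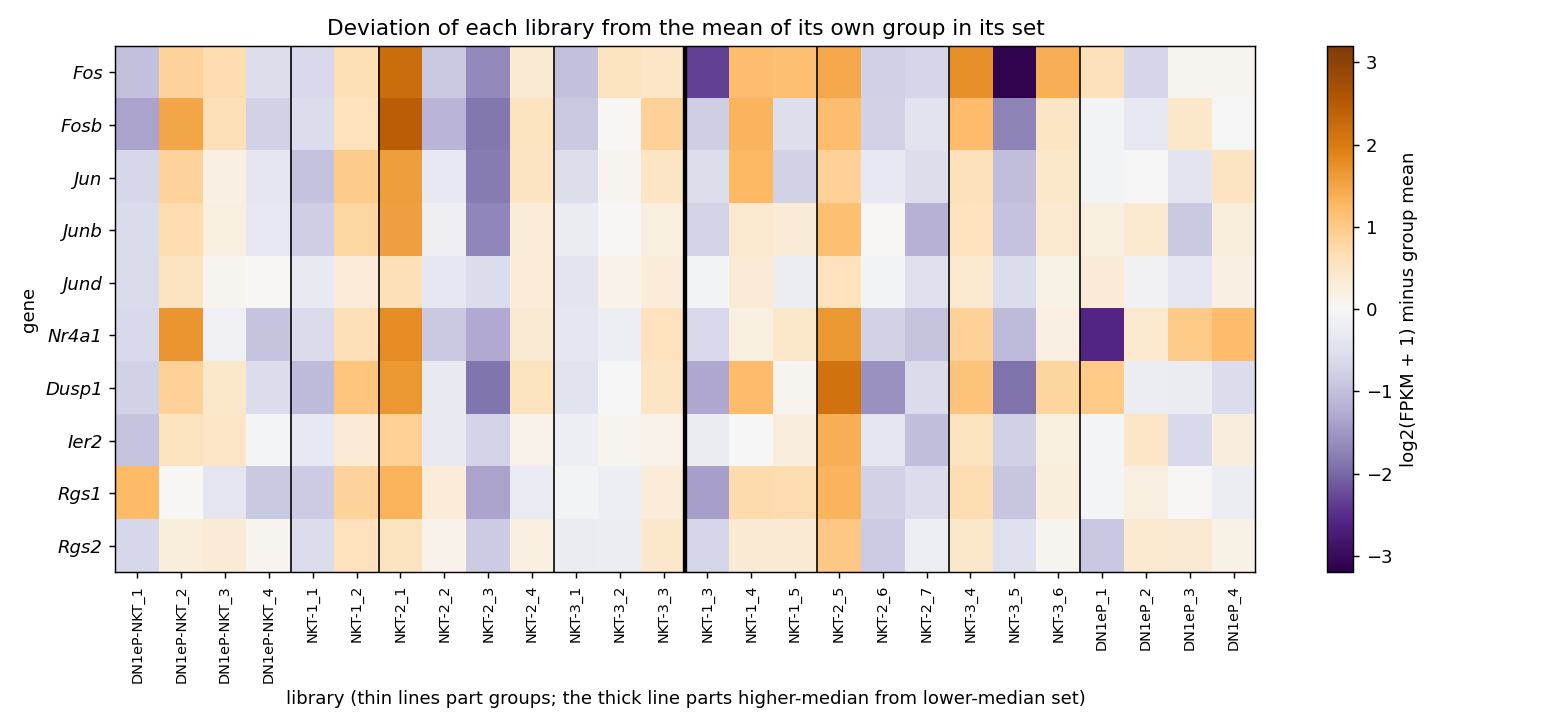
Deviation of log2(FPKM + 1) of each member (rows) from the mean of its own group and set, in each of the 26 libraries (columns); orange is above and purple below the mean, and lines part the groups. Whole columns share a colour in NKT-2 1, NKT-2 3, NKT-2 5, NKT-3 4 and NKT-3 5, whereas DN1eP columns are mixed.

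Genes with the most similar pattern were ranked by the smaller of 2 Pearson r of log2(FPKM + 1), 1 over the 13 libraries of each set, among 10102 genes tested in both. Among the nearest to Fos were Zfp36 (0.97 in the higher-median and 0.90 in the lower-median set), Ppp1r15a (0.95 and 0.90), Dusp1 (0.98 and 0.86) and Fosb (0.90 and 0.80). Dusp1 was followed by Rhob (0.88 and 0.92), Fos, Zfp36l2 (0.93 and 0.85), Fosb (0.86 and 0.83) and Ppp1r15a (0.98 and 0.82). Rgs1 had other neighbours, Xcl1 (0.97 and 0.94), Klf6 (0.93 and 0.97), Bhlhe40 (0.91 and 0.96), Gem (0.91 and 0.94) and Ptpn22 (0.93 and 0.90). For Nr4a1 they were Slc3a2 (0.89 and 0.90), Sik1 (0.90 and 0.87), Maff (0.87 and 0.82), Nfkbia (0.89 and 0.76) and Per1 (0.79 and 0.76). None of the 5 nearest genes of Nr4a1 was a member.

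The difference between the 2 library sets varied by member. Averaged over stages, it was larger than NKT-3 minus NKT-1 of the higher-median set for Junb, Jund, Ier2, Jun and Nr4a1. It was smaller in size for Fos, Fosb, Dusp1, Rgs1 and Rgs2. In the 18 thymic libraries, Junb ranged from 51.3 to 836 FPKM in the higher-median set and from 1.25 to 12.9 FPKM in the lower-median set. Jund ranged from 49.5 to 209 and from 1.27 to 6.45 FPKM in the same order of sets, and Ier2 from 43.9 to 143 and from 2.71 to 18.6 FPKM. These 3 of 10 members did not overlap between the sets, as was true of 34.7% of all 12119 genes (29.2% as higher and 5.51% as lower in the higher-median set). A share of 3 in 10 is near that of all genes. Fos ranged from 10.3 to 545 FPKM and from 7.75 to 489 FPKM and overlapped almost fully, and Fosb, Jun, Nr4a1, Dusp1, Rgs1 and Rgs2 overlapped too. Averaged over stages, the higher-median set exceeded the lower-median set by 5.29 for Junb, 4.50 for Jund, 3.47 for Ier2 and 3.32 for Jun on the log2 scale, by 0.92 for Rgs2, and by -0.17 for Fos and -0.78 for Rgs1, where the median of all tested genes was 0.45.

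The members with the highest GC content in their transcripts were those that did not overlap between the sets. The longest annotated transcript of Jund is 67.1% GC, that of Junb 62.6% and that of Ier2 60.9%, while Fos is at 51.9%, Rgs2 at 43.6% and Rgs1 at 37.4%. The order was not strict, since Nr4a1 (57.0%) and Fosb (56.0%) differed by 1.77 and 2.01 between sets, less than Jun (55.5%, 3.32) and Dusp1 (54.9%, 2.29), and Fos differed less than Rgs2. Over the 10307 tested genes with a GC value (85.05% of 12119), the median difference between sets was 0.23 in the lowest GC quintile and 1.22 in the highest. Junb and Jund lay above 99.9% and 99.8% of tested genes in the difference between sets. The labels name 2 library kits, SMARTer Ultra Low Input and TruSeq v2, without tying a kit to a library, so the part of the kit was not tested. The order of members by level also differed between sets. In NKT-3 of the higher-median set Dusp1 (1489 ± 485 FPKM) stood first, followed by Rgs1 (891 ± 158), Junb (724 ± 111), Fos (416 ± 198) and Rgs2 (357 ± 102). Dusp1 and Rgs1 overlapped only at 1053 and 1070.2 FPKM. Rgs1 (from 769.6 FPKM) overlapped with Junb (up to 836 FPKM), and the Rgs2 range (296 to 474 FPKM) lay inside that of Fos (189 to 545 FPKM). Junb and Fos did not overlap. In NKT-3 of the lower-median set Rgs1 (602 ± 289 FPKM) stood first, then Fos (298 ± 249), Dusp1 (204 ± 146) and Rgs2 (104 ± 32.3), with each neighbouring pair overlapping in range, and Junb was at 9.39 ± 4.85 (SD, n = 3 each).

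**Figure D4:**
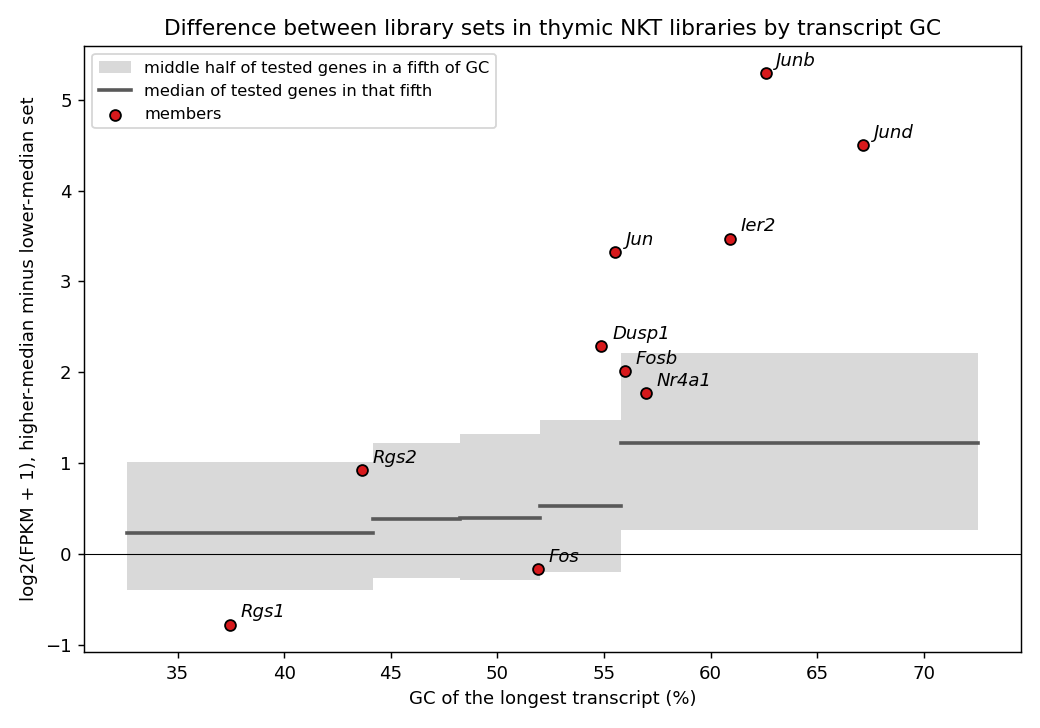
Mean log2 difference of FPKM + 1 between the thymic libraries of the higher-median set and those of the lower-median set (vertical axis) against the GC percentage of each member's longest transcript (horizontal axis); grey boxes and lines give the middle of the distribution and the median of all tested genes in each GC quintile. Junb at 5.29 and Jund at 4.50 lie far above their quintile, with a median of 1.22, and Fos at -0.17 and Rgs1 at -0.78 lie below 0.

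Related genes were counted by family, where 28.7% of all tested genes were called between NKT-3 and NKT-1 of the higher-median set, 10.6% as higher. Of 25 tested early response genes other than the members, 14 were higher and 1 lower (Klf10) in NKT-3 than in NKT-1 of the higher-median set, with a median log2 difference of 1.64 beside -0.09 over all genes. Cd69, an early activation marker that retains cells in tissue, averaged 128 FPKM in NKT-3 and 5.96 FPKM in NKT-1 (4.15 ± 0.83, limma adjusted p = 0.00389). Tnfaip3, an inhibitor of NF-κB signalling, averaged 309.5 FPKM in NKT-3 and 22.1 FPKM in NKT-1 (4.02 ± 1.14, limma adjusted p = 0.0258). Klf6, a zinc finger factor, averaged 182 FPKM in NKT-3 and 11.8 FPKM in NKT-1 (3.72 ± 0.50, limma adjusted p = 0.000107). Of 11 other AP-1 and ATF genes 3 were higher, Atf3 (3.88), Fosl2 (2.22) and Atf4 (0.81), and none was lower, a share near that of all genes called. Of 8 other dual specificity phosphatases 5 were higher, Dusp5 (2.21), Dusp6 (1.93), Dusp2 (1.48), Dusp16 (1.26) and Dusp7 (0.97). The other Rgs genes did not follow Rgs1 and Rgs2 as a family, with Rgs3 higher (0.95) and Rgs12 lower (-1.22) among 7 tested.

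Beside the same 28.7% of all genes, factors that act on the members gave these counts. Of 12 genes for SRF, its partners and CREB factors 1 was called, Mef2a at 1.10. Of 8 calcineurin and NFAT genes 1 was called, Nfatc2 at 0.60. Heat shock and stress genes, which answer to handling and heat, were lower in 4 of 12 cases and higher in 1. The 4 were Hsp90aa1 (-1.13), Hspd1 (-1.09), Hsp90ab1 (-0.77) and Dnaja1 (-0.61), and the 1 was Ddit3 (0.995). In the lower-median set 5 of 24 early response genes were higher in NKT-3 than in NKT-1, Klf6 (2.01), Sgk1 (1.90), Zfp36l2 (1.46), Btg2 (1.37) and Btg1 (1.16), and 5 of 10 heat shock genes were lower, led by Hsp90aa1 (-1.83), where 20.2% of all genes were called.

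In DN1eP-NKT against NKT-3, 11 of 25 early response genes were lower and 2 were higher, beside 31.6% of all genes called. Tnfaip3 (-4.07 ± 0.96, limma adjusted p = 0.00975) and Ppp1r15a (-3.28 ± 0.79, limma adjusted p = 0.0106) were lower, and Gadd45g, a stress sensor and growth arrest gene, was higher at 56.1 FPKM in DN1eP-NKT and 3.92 FPKM in NKT-3 (3.57 ± 0.26, limma adjusted p = 7.08e-08). Of 7 other Rgs genes Rgs18 (3.10) and Rgs12 (2.31) were higher and Rgs10 (-2.47) and Rgs3 (-1.77) lower. For NKT-1 against DN1eP, 13 of 24 early response genes were lower and none was higher, beside 29.9% of all genes called, among them Cd69 (-3.37 ± 0.76, limma adjusted p = 0.00912), Tnfaip3 (-2.98 ± 0.79, limma adjusted p = 0.0183) and Klf6 (-2.71 ± 0.43, limma adjusted p = 0.000501). Fosl2 (-4.16), Atf3 (-3.02) and Maff (-1.46) were the 3 of 9 AP-1 and ATF genes lower in NKT-1, and Fosl2 averaged 0.778 FPKM in NKT-1 and 47.5 FPKM in DN1eP. For NKT-2 against DN1eP 12 of 24 early response genes were lower (24.5% of all genes called), and for NKT-3 against DN1eP 6 were (15.5% called), led by Nr4a2, a relative of Nr4a1, at -3.17 and -2.74. Nr4a2 averaged 0.149 FPKM in NKT-2 and 0.556 FPKM in NKT-3, against 14.3 ± 9.57 FPKM in DN1eP (SD, n = 4), where the lowest library, at 0.483 FPKM, lay within the NKT-3 range of 0.327 to 0.811 FPKM. Crem, a CREB family gene, averaged 32.4 FPKM in NKT-1 and 252 FPKM in DN1eP (-2.47 ± 0.72, limma adjusted p = 0.0272).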

How the data were processed

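RNA was extracted from sorted mouse thymus cells, and libraries were made with 1 of 2 kits (SMARTer Ultra Low Input or TruSeq v2), per the labels' protocols. The authors deposited 1 table of FPKM values per library, on mm9, and the submitters' processing notes name TopHat2 2.0.6 and Cufflinks 2.1.1. FPKM are fragments scaled to transcript length and library size, so no counts were at hand. Depth was estimated from the FPKM of 1 fragment over 2009 genes with a single transcript. Deposited confidence intervals held the FPKM for 200 of 260 member values, the other 60 lying above, and are not used further.

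Of 23267 symbols, 23168 were kept (86 were missing from a file and 13 had a failed estimate). Tests used limma 3.58.1 in R 4.3.3 on log2(FPKM + 1), with intensity trend and robust moderation, on genes at 1 FPKM or more in 3 or more libraries, within each library set. The Benjamini-Hochberg method adjusted each p-value across the genes tested, with calls at 0.05. The test was tested on simulated data with 200 changed genes. Alternatives were a pseudocount of 0.1, no filter, upper-quartile scaling, a replicate block, 1 fit of all 26 libraries, and libraries left out.

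All 10 members are named. Of each gene list, up to 3 called genes with the largest differences are named, and all called genes where 5 or fewer were called. Neighbours of Fos, Nr4a1, Rgs1 and Dusp1 are taken from the first 5 by the smaller Pearson r of both sets. Some results under these rules are not reported here. The members and lists were chosen with earlier results of these data known.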

Additional observations from a re-analysis of the deposited data

Results flagged for a closer look

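Of 60 combinations of a member and a group of 4 to 7 libraries, 7 had 1 library far from the others of its group by Dixon's test. Chance flags about 1 in 20 groups, and the members move together, so these are not separate events. Of these values, 4 are in NKT-2, taken over both library sets. Pooled over sets that differ in level, such a value reflects the difference between sets as well as 1 library, and the rate of 1 in 20 does not apply to it. NKT-2 1 had 36.9 FPKM of Fosb, 529.5 FPKM of Junb and 114 FPKM of Nr4a1, each the highest of 7 libraries, and NKT-2 5 had 306 FPKM of Rgs1, the highest of 7. NKT-1 2 had 28.1 FPKM of Jun, the highest of 5 NKT-1 libraries over both sets. DN1eP-NKT 2 had 34.1 FPKM of Nr4a1, where the other 3 had 4.68 to 8.90 FPKM. DN1eP 1 had 193 FPKM of Dusp1, where the other 3 had 65.3 to 83.3 FPKM.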

How the results depend on the processing

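Over single members, 3292 of 3460 recomputed values kept their direction and their side of the threshold, 140 lost a call, 28 gained one and none reversed. With 1 library left out at a time, members called ranged from 1 to 3 for DN1eP-NKT minus NKT-1, 2 to 3 minus NKT-2 and 6 to 7 minus NKT-3. In the higher-median set they ranged from 3 to 9 for NKT-3 minus NKT-2 and from 2 to 9 for NKT-3 minus NKT-1. In the lower-median set they ranged from 2 to 4 for NKT-1 minus DN1eP, 2 to 3 for NKT-2 minus DN1eP, 0 to 2 for NKT-3 minus DN1eP, 0 to 1 for NKT-3 minus NKT-2 and 1 to 2 for NKT-3 minus NKT-1. For DN1eP-NKT minus DN1eP they ranged from 2 to 6. NKT-2 minus NKT-1 and the differences between sets stayed at 0 throughout. Upper-quartile scaling gave 1 call for NKT-3 minus NKT-2 and 2 for NKT-3 minus NKT-1 in the lower-median set, where it moved the median of all genes by 0.12 to 0.27. Without NKT-2 6 and NKT-3 5 together there were 4 calls for NKT-3 minus NKT-1 in that set and 2 for DN1eP-NKT minus DN1eP. Replicate numbers did not pair the samples throughout (r of same-numbered deviations from -0.36 to 0.51). In the higher-median set DN1eP-NKT 1, NKT-1 1 and NKT-2 1 deviated together (r of 0.45 to 0.51). In the lower-median set NKT-2 5 had an r of 0.39 with NKT-3 4 and -0.36 with NKT-3 5. NKT-2 6 had 0.41 with NKT-3 5 and -0.15 with NKT-3 6. The block joins libraries by number, so there it joined libraries that did not deviate together. A replicate block gave 3 member calls for NKT-3 minus NKT-2 and 4 for NKT-3 minus NKT-1 in the higher-median set, 0 for NKT-2 minus DN1eP and for NKT-3 minus NKT-1 in the lower-median set, and 1 for DN1eP-NKT minus DN1eP. The calls lost in the lower-median set were Rgs1 for NKT-3 minus NKT-1, Rgs1, Rgs2 and Fosb for NKT-2 minus DN1eP, and Fosb for NKT-1 minus DN1eP. Over all genes the block called 589 for NKT-2 minus DN1eP, 755 for NKT-3 minus DN1eP, 510 for NKT-3 minus NKT-2 and 1103 for NKT-3 minus NKT-1 in the lower-median set, beside 2613, 1649, 814 and 2151 without it. The cause was not tested. Depth limits low values: 10 of 260 member values rested on fewer than 10 estimated fragments.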
